A study of Mus musculus with 8 samples.

Results

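The genes described here encode the proteins of the cytosolic ribosome in mouse mesenchymal stem and progenitor cells (MSPCs). They were chosen by symbol alone, as protein-coding autosomal RefSeq genes named Rpl or Rps with a number, Rplp0 to Rplp2, or Rpsa, without the Rps6k kinases. The rule found 77 of 20661 protein-coding autosomal genes, of which 47 belong to the large and 30 to the small ribosomal subunit. The study mapped H3K4me3, H3K4me2 and H3K27me3 in Asxl1-/- and in wild-type cells by chromatin immunoprecipitation sequencing, and the chromatin regulator ASXL1 in wild-type cells. The cells were grown from bone marrow of C57BL/6 mice and used at passages 5 to 10. Each target and genotype is 1 library. The differences below therefore lack replicates and cannot be tested, and every value describes these libraries. The labels do not say how Asxl1 was removed, nor whether cultures came from 1 or several animals. The series holds no ASXL1 library of Asxl1-/- cells, so the antibody was not checked here against cells without its target.

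The data are lists of islands, which are stretches of the genome where a mark was called, with a start and an end on a grid of 200 bp and no read count. A gene counts as marked when an island lies within 1000 bp of either of its ends, and the widest such island gives its width. The lists held 15276 H3K4me3 islands in Asxl1-/- and 17884 in wild type, 33589 H3K4me2 islands in Asxl1-/- and 36048 in wild type, and 20249 H3K27me3 islands in Asxl1-/- and 17712 in wild type. The ASXL1 list held 17419. Depth is unknown. All 10 stromal marker genes, Col1a1 and Pdgfra among them, carried H3K4me3 in both genotypes. Of 6 blood cell genes only Spi1 carried it, and of 4 endothelial genes only Kdr, again in both genotypes. Spi1 and Kdr also carried H3K27me3 in both genotypes. Among the stromal genes, H3K27me3 was at Thy1 in Asxl1-/- alone and at Cxcl12 in wild type alone.

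Ribosomal proteins coat and stabilise the ribosomal RNA, and a ribosome needs them in near equal numbers, so their genes are expressed together in nearly every growing cell. Their transcripts typically begin with a C followed by a run of pyrimidines, the terminal oligopyrimidine (TOP) tract, through which the mTOR pathway sets their translation. H3K4me3 marks the starts of active and poised genes, H3K4me2 lies at promoters and enhancers alike, and H3K27me3 is placed by Polycomb repressive complex 2 on silent genes. ASXL1 is a Polycomb-group and Trithorax-group cofactor that forms a histone H2A deubiquitinase with BAP1. Several ribosomal protein genes are mutated in Diamond-Blackfan anaemia, a failure of red cell production.

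RefSeq lists a promoter for 57 of the 77 genes and for 16456 genes in all, on GRCm38.p6, whose coordinates are those of mm10. A TOP start, taken as a C on the listed first base followed by 4 or more pyrimidines, stood at 13 of the 57 (22.8%), against 2.18% of all listed promoters. It stood at 27 (47.4%), against 19% of all, when the C could lie up to 5 bases from the listed start. The 5 starts below, from genes named further on, show tracts of different lengths. Each runs from 10 bases before the listed start through its first 20 bases, on the strand of the gene, with the tract in capitals.
Rpl15, chr14:18270967-18270996, minus strand: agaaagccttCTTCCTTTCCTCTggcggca
Rpl35, chr2:39005112-39005141, minus strand: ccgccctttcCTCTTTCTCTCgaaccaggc
Rps18, chr17:33955646-33955675, minus strand: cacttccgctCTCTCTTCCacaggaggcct
Rpl38, chr11:114668570-114668599, plus strand: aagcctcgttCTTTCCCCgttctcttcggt
Rplp2, chr7:141447641-141447670, plus strand: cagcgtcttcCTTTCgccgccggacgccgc
The tracts were 13 bases in Rpl15, 11 in Rpl35, 9 in Rps18, 8 in Rpl38 and 5 in Rplp2.

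Sequences upstream of the listed start are shown for Rps18, which had the second widest H3K4me3 island of the 77 in wild type, for Rpl39l, which had H3K4 islands in Asxl1-/- alone, and for Rpl10l and Rpl3l, whose starts no H3K4 island covered in either genotype. Capitals mark CCGGAAG, the letters bound by ETS factors, or GGGCGG, those bound by Sp1, on either strand. The upstream sequence of Rpl3l held neither. That of Rpl39l stops at the left end of the gene span, short of the listed start.
Rps18, chr17:33955666-33955915, minus strand: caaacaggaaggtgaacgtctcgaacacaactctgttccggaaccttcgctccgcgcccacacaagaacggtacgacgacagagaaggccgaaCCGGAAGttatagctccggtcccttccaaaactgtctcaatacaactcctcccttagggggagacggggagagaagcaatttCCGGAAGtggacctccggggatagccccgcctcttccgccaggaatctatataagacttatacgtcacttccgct
Rpl39l, chr16:10169978-10170196, plus strand: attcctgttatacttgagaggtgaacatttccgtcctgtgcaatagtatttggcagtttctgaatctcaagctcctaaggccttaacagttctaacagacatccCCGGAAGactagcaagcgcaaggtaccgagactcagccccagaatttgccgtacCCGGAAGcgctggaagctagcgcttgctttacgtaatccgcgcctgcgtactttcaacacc
Rpl10l, chr12:66284402-66284651, minus strand: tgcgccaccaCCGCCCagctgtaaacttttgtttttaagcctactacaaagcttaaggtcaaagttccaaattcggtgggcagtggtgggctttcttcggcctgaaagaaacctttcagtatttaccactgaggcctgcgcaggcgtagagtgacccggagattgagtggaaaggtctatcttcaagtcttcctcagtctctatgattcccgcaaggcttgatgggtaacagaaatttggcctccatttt
Rpl3l, chr17:24727576-24727825, plus strand: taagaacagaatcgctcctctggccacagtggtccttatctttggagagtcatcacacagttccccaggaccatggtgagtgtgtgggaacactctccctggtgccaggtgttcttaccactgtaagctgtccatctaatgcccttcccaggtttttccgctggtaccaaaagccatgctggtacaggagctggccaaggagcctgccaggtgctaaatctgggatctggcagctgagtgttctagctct

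Across the window from 250 bases before to 50 after the start, the ETS letters CCGGAAG stood in 23 of 57 ribosomal protein promoters (40.4%), against 12.2% of all listed promoters and 18.3% of those whose gene carried H3K4me3 in wild type. They were in the promoters of Rpl11, Rpl15, Rpl35, Rpl38, Rplp2, Rps26, Rps27l and Rpsa, among others described below. The Sp1 letters GGGCGG were in 56.1%, against 47.3% of all and 66.5% of the H3K4me3-marked promoters. CTCGCGAG, the letters bound by ZBTB33, were in 6 promoters, those of Rpl12, Rpl26, Rpl27a, Rps19, Rps28 and Rps6 (10.5%, against 1.28% and 1.95%). The cyclic AMP response letters TGACGTCA were in 8.77%, against 2.42% and 3.47%. The YY1 letters GCCATNTT were in 15.8%, against 6.69% and 8.45%, and these include the 4 promoters with the overlapping form AAGATGGC (7.02%, against 3.23% and 4.51%).

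TATAAA, the TATA box, was in 7.02%, against 13.5% and 6.74%. The E-box CACGTG was in 8.77%, against 7.96% and 10.3%. The NRF1 letters GCATGCGC were in 3.51%, against 3.65% and 5.5%. The ratio of observed to expected CpG pairs had a median of 0.877 in these promoters, against 0.595 in all and 0.775 in the H3K4me3-marked ones, and the lowest value, 0.0892, was that of Rpl3l. These matches describe letters in a window and do not show that a factor binds there.

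H3K4 methylation was present at nearly every ribosomal protein gene in both genotypes, and ASXL1 lay at all of those marked in wild type. H3K4me3 islands were at 75 genes in Asxl1-/- (97.4%, exact 95% Clopper-Pearson interval 90.9 to 99.7) and at 74 in wild type (96.1%, 89.0 to 99.2), against 59.6% and 59.8% of all protein-coding autosomal genes. H3K4me2 gave the same counts, 75 in Asxl1-/- and 74 in wild type, against 65.7% and 64.7% of all genes. The same 74 genes had both H3K4 marks in both genotypes and an ASXL1 island in wild type, where 51.4% of all genes had ASXL1. The intervals here and below cover counting error only.

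H3K27me3 was nearly absent. Its islands reached 2 of the 77 genes in Asxl1-/- (2.6%, 0.316 to 9.07) and 0 in wild type (upper limit 4.68%), against 24.4% and 27.4% of all genes. All 30 small subunit genes carried both H3K4 marks and ASXL1, and the genes without H3K4me3 in wild type are 3 large subunit copies described below. These 3 also had no ASXL1, as did all but 4.04% of all genes without H3K4me3. Of the members, 17 were taken as Diamond-Blackfan anaemia genes, from a fixed list that may be incomplete. All 17 carried both H3K4 marks in both genotypes and ASXL1 in wild type, and none carried H3K27me3.

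**Figure D1:**
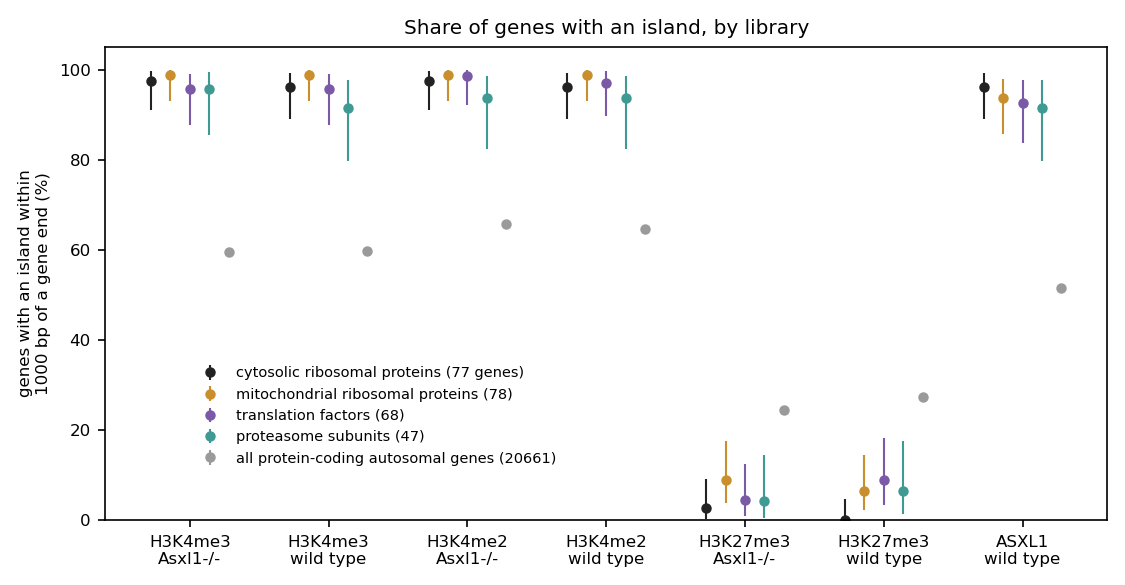
Share of genes, in percent, with an island within 1000 bp of a gene end in each of the 7 libraries, for the 77 cytosolic ribosomal protein genes, 3 comparison groups and all 20661 protein-coding autosomal genes. Bars are exact 95% intervals for counting error; the ribosomal protein genes lie at 96.1 to 97.4% for the H3K4 marks and ASXL1 and at 2.6 and 0% for H3K27me3, next to the other housekeeping groups.

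Other groups of housekeeping genes had like shares of the H3K4 marks and ASXL1, and low shares of H3K27me3. H3K27me3 was at 8.97% of mitochondrial ribosomal protein genes in Asxl1-/- and 6.41% in wild type. For translation factor genes these shares were 4.41% and 8.82%, and for proteasome subunit genes 4.26% and 6.38%. H3K4me3 was at 77 of 78 mitochondrial ribosomal protein genes in both genotypes, at 65 of 68 translation factor genes in both, and at 45 proteasome subunit genes of 47 in Asxl1-/- and 43 in wild type. Among genes with H3K4me3 in wild type, ASXL1 lay at 74 of 74 ribosomal protein genes, at 94.8% of mitochondrial ribosomal protein genes, 96.9% of translation factor genes and 95.3% of proteasome genes, against 83.1% of all. The 7 cytosolic ribosomal protein genes that the symbol rule leaves out, Fau, Rps3a1 and Rack1 among them, all had both H3K4 marks in both genotypes and ASXL1 in wild type. Of 20 genes of ribosome biogenesis and RNA polymerase I, 20 had H3K4me3 in Asxl1-/- and 19 in wild type. The exception was Ubtf, the upstream binding factor of ribosomal RNA genes, with an 18.2 kb H3K4me3 island in Asxl1-/- and none in wild type. Its H3K4me2 island in Asxl1-/- was only 0.8 kb, and in wild type it had neither H3K4me2 nor ASXL1.

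H3K4me3 and H3K4me2 were kept (present in both genotypes) at 74 genes, lost (in wild type alone) at 0 and gained (in Asxl1-/- alone) at 1. The share lost over all genes marked in wild type was 4.18% for H3K4me3 and 2.99% for H3K4me2. The share gained over all unmarked genes was 5.63% for H3K4me3 and 8.46% for H3K4me2. The gained gene, for both marks, was Rpl39l, at chr16:10170197-10174911, a copy of the X-linked Rpl39 known from testis. In Asxl1-/- it had a 4.6 kb H3K4me3 island, which began 1.4 kb before the gene, and a 3.6 kb H3K4me2 island. In wild type no H3K4me3 or H3K4me2 island was within 10 kb of it, and no ASXL1 island either.

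Rpl10l, the testis copy of the X-linked Rpl10, and Rpl32l had no island within 1000 bp in any library. Rpl3l, the form of Rpl3 known from heart and skeletal muscle, was counted as marked only through its far end, which lies near an end of Msrb1. Its H3K4me3 island was 7.0 kb in Asxl1-/- and 4.8 kb in wild type, its ASXL1 island was 7.8 kb, and none covered its listed start. Rps27l, a copy of Rps27 that p53 induces, was marked at its own start, with 5.2 kb of H3K4me3 in Asxl1-/- against 3.2 kb in wild type, the narrowest H3K4me3 island of the 77 in wild type. Its H3K4me2 island was 5.4 kb in Asxl1-/- against 3.6 kb in wild type. Rps4l is annotated as a transcribed pseudogene and is not among the 77.

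H3K27me3 was gained at 2 genes, Rpl38 and Rpl17. None of the 77 lost it, since none had it in wild type, and 25.8% of all genes with it in wild type lost it, while 5.6% of those without it gained it. Rpl38, a large subunit protein known in mouse for the translation of Hox transcripts, lies at chr11:114667818-114672333. Its island in Asxl1-/- was 5.8 kb wide and reached 0.382 kb past the left end of the gene span. The island ended at 114668200, short of the listed start within chr11:114668570-114668599. Of that island 4.2 kb was also covered in wild type, where the edge lay 1.22 kb from the gene, just outside the window.

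Rpl17, which lies near the exit of the peptide tunnel, is at chr18:74998978-75003381. Its H3K27me3 island in Asxl1-/- was 11.6 kb wide and ended 0.578 kb before the gene. Wild type covered 6.4 kb of it and ended 1.58 kb before the gene. With a window of 2500 bp both genes counted as marked in both genotypes, so neither gain held. At both genes H3K4me3 was kept, with 12.8 kb in Asxl1-/- against 12.2 kb in wild type at Rpl38, and 10.8 kb in Asxl1-/- against 8.0 kb in wild type at Rpl17.

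**Figure D2:**
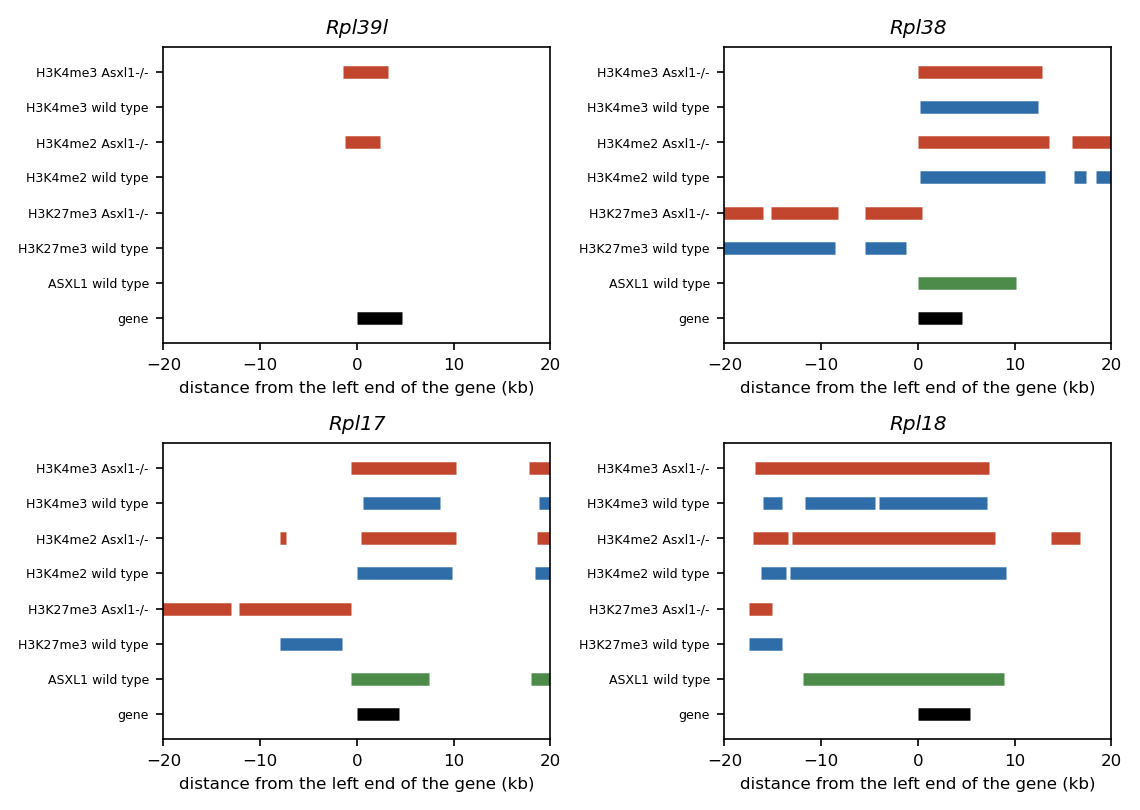
Islands of the 7 libraries within 20 kb of the left end of 4 ribosomal protein genes, drawn to scale in kb, with Asxl1-/- in red, wild type in blue, ASXL1 in green and the gene in black. Rpl39l has H3K4 islands in Asxl1-/- alone; at Rpl38 and Rpl17 the H3K27me3 island comes closer to the gene in Asxl1-/-; at Rpl18 a 24.2 kb H3K4me3 island of Asxl1-/- spans 3 islands of wild type.

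The nearest H3K27me3 island was otherwise a median of 30.7 kb from the 75 unmarked genes in Asxl1-/- and 21.3 kb from the 77 in wild type. Over all unmarked genes the distance was 61.8 kb in Asxl1-/- and 53.6 kb in wild type, and over those that carried H3K4me3 in the same genotype it was 37.8 kb in Asxl1-/- and 34.3 kb in wild type. An island lay within 10 kb of 17 of the 75 genes in Asxl1-/- (22.7%) and 23 of the 77 in wild type (29.9%), against 17.2% and 17.9% of all unmarked genes. Over the unmarked genes with H3K4me3 it was 21.4% in Asxl1-/- and 22.2% in wild type.

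The median island at ribosomal protein genes was wider than that over all marked genes. Beside genes of at most 5 kb, described below, the excess was small for H3K4me3 in Asxl1-/- and for ASXL1. The median H3K4me3 width was 6.4 kb in both genotypes, with quartiles of 5.2 and 9.3 kb in Asxl1-/- and 5.2 and 9.15 kb in wild type, against medians over all marked genes of 5.2 kb in Asxl1-/- and 4.6 kb in wild type. For H3K4me2 it was 6.8 kb in Asxl1-/- and 7.7 kb in wild type, against 5.0 kb in Asxl1-/- and 5.4 kb in wild type over all. For ASXL1 it was 7.1 kb, against 5.2 kb. The large subunit genes had a median H3K4me3 width of 7.2 kb in Asxl1-/- and 7.6 kb in wild type, and the small subunit genes 5.5 kb in Asxl1-/- and 5.9 kb in wild type.

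**Figure D3:**
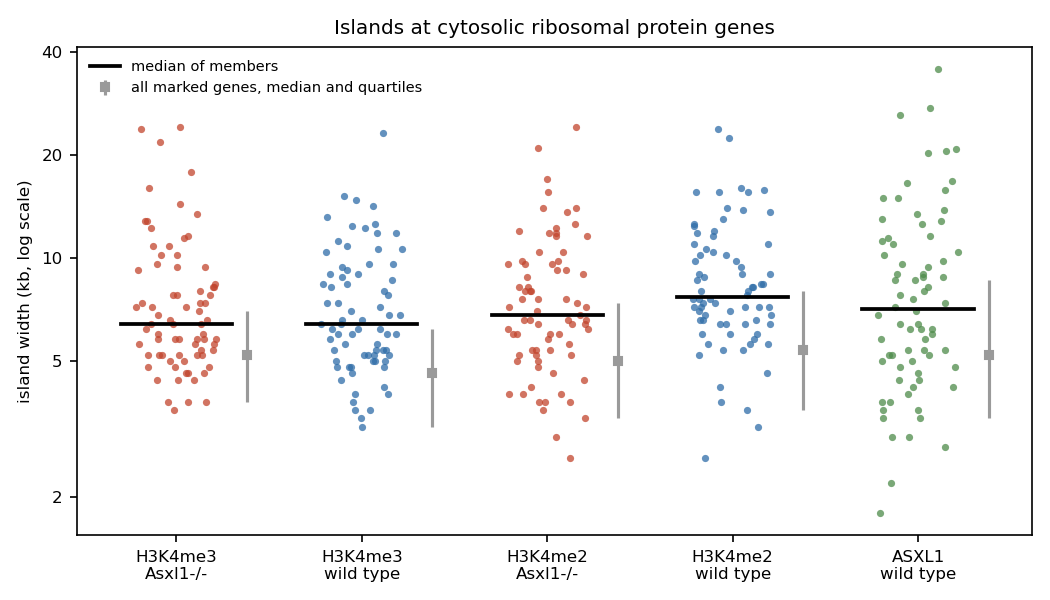
Width in kb, on a log axis, of the island at each marked ribosomal protein gene in the H3K4me3, H3K4me2 and ASXL1 libraries, with the median of these genes as a black line. Grey squares and bars give the median and quartiles over all marked protein-coding autosomal genes; the ribosomal protein medians of 6.4 to 7.7 kb lie above the grey medians of 4.6 to 5.4 kb.

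A single H3K4me3 island held the whole gene at 55 of the 77 in Asxl1-/- (71.4%) and at 56 in wild type (72.7%), against 5.28% and 4.14% of all genes. An H3K4me2 island did so at 59 in Asxl1-/- and 66 in wild type, against 6.02% and 6.1%, and an ASXL1 island at 54, against 5.41%. The median gene length was 3.18 kb, with a range of 0.592 to 11.8 kb, against 17.5 kb over all. Among genes of at most 5 kb with an H3K4me3 island, a class chosen after these values were seen, the whole gene was covered at 52 of 62 ribosomal protein genes in Asxl1-/- (83.9%) and 49 of 61 in wild type (80.3%). The share over all such genes was 56.7% and 48.7%, and their median width was 6.2 kb in Asxl1-/- and 5.0 kb in wild type, beside 6.4 kb in Asxl1-/- and 6.2 kb in wild type at the ribosomal protein genes. For ASXL1 the widths in this class were 7.0 kb and, over all, 6.9 kb.

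Where the start is listed, the H3K4me3 island reached a median of 1.85 kb upstream and 4.53 kb downstream in Asxl1-/-, and 1.59 kb upstream and 4.62 kb downstream in wild type. Over all genes it reached 1.87 kb upstream and 3.0 kb downstream in Asxl1-/-, and 1.52 kb upstream and 2.74 kb downstream in wild type. ASXL1 reached 1.77 kb upstream and 4.94 kb downstream, against 1.79 and 2.63 kb over all genes. The greater reach of the islands at ribosomal protein genes was therefore downstream of the start. It exceeded the median length of the 77 genes, 3.18 kb, and so often ran past the gene. Reach was not compared with that of other short genes.

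**Figure D4:**
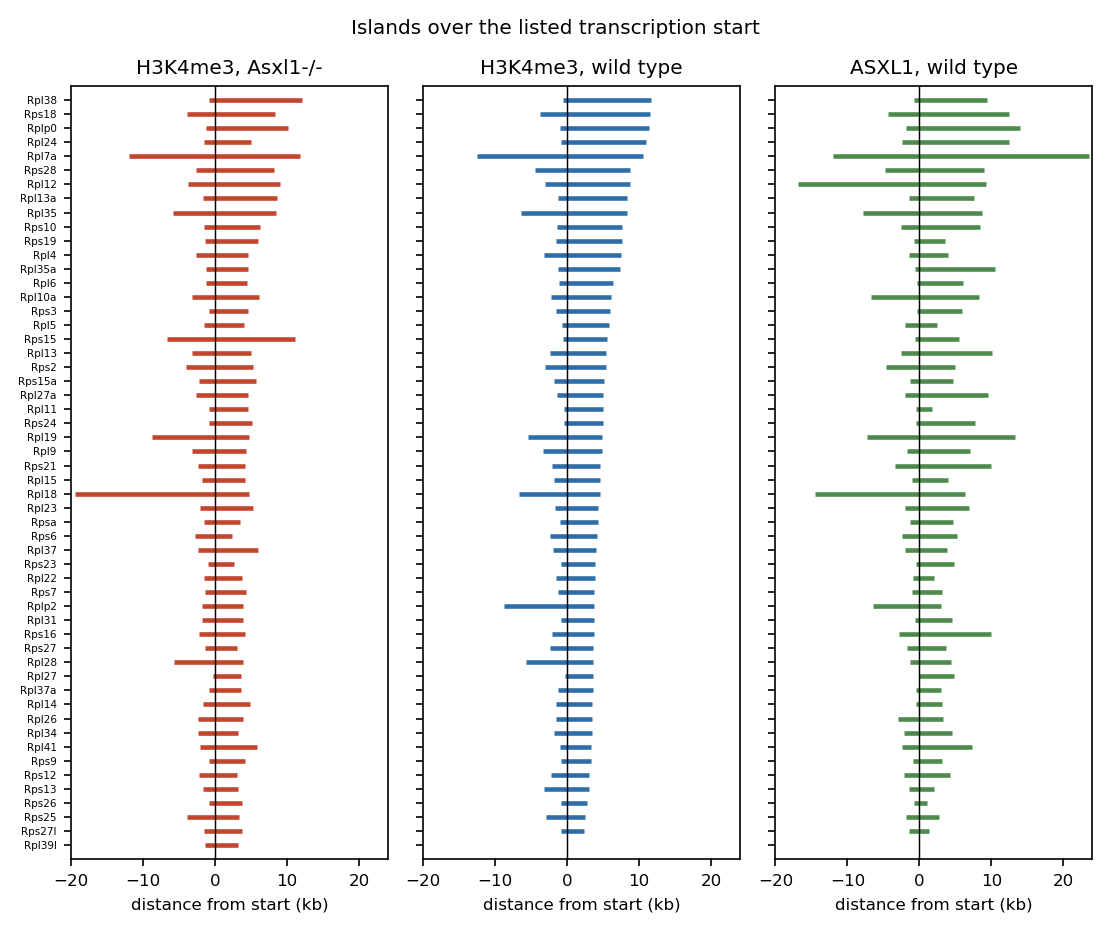
Extent, in kb from the listed start with the gene body to the right, of the islands that cover the start of each ribosomal protein gene, for H3K4me3 in Asxl1-/- and in wild type and for ASXL1 in wild type. Genes are ordered by how far the wild-type H3K4me3 island reaches downstream; most islands reach further downstream than upstream, at 48 of 54 genes in Asxl1-/- (88.9%, against 76.9% of all genes) and 46 of 53 in wild type (86.8%, against 78.5%) for H3K4me3.

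The widest H3K4me3 islands in wild type were at genes with close neighbours. Rpl7a, at chr2:26910685-26913312 between Med22 and Surf1, had 23.8 kb of H3K4me3 in Asxl1-/- and 23.2 kb in wild type, and the widest ASXL1 island of the group, 35.6 kb. Next in wild type was Rps18, a small subunit head protein, with 12.2 kb of H3K4me3 in Asxl1-/- and 15.2 kb in wild type. Rpl35, near the tunnel exit, had 14.4 kb in Asxl1-/- and 14.8 kb in wild type. Rpl36 had 16.0 kb in Asxl1-/- and 14.2 kb in wild type, and Rps28 had 10.8 kb in Asxl1-/- and 13.2 kb in wild type. All 5 have an end of another gene within 2000 bp. In Asxl1-/- the order was another, with the widest at Rpl18, Rpl7a, Rpl23a, Rps15 and Rpl36.

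The narrowest in wild type after Rps27l were at Rps29, a zinc-binding small subunit protein, with 3.8 kb in Asxl1-/- and 3.4 kb in wild type, and at the stalk protein gene Rplp1, with 4.4 kb in Asxl1-/- and 3.6 kb in wild type. Rps26, which lines the exit of the messenger RNA channel, had 4.6 kb in Asxl1-/- and 3.6 kb in wild type, and Rpl27 had 3.8 kb in both. None of these has such a neighbour. Of the 77 genes, 39 have one. Their median H3K4me3 width was 7.8 kb in Asxl1-/- and 8.2 kb in wild type, against 5.3 kb in Asxl1-/- and 5.4 kb in wild type at the marked genes without one. An island between such neighbours cannot be assigned to either gene.

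Between the genotypes, H3K4me3 width at these genes differed in both directions and H3K4me2 was narrower in Asxl1-/- at most of them. The median ratio of Asxl1-/- over wild type was 1.06 for H3K4me3, with a range of 0.460 to 2.87, against a median of 1.12 over all kept genes. The island was wider in Asxl1-/- at 41 of 74 genes (55.4%, against 62.8% of all), equal at 3 and narrower at 30 (40.5%, against 30.8% of all). For H3K4me2 the median ratio was 0.909, against 0.958 over all, with 18 genes wider (24.3%, against 40% of all) and 52 narrower (70.3%, against 53.7% of all). Relative to the median over all kept genes of its chromosome, which was above 1 on every autosome but 3 and 13, the median H3K4me3 ratio was 0.930.

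The width in Asxl1-/- was at least 1.5 times that in wild type at 5 genes for H3K4me3, against 19.8% of all kept genes, and at most 1/1.5 of it at 2, against 5.26%. For H3K4me2 these counts were 2 and 9, against 11% and 14.6% of all kept genes. Both islands were wider in Asxl1-/- at 14 of the 74 genes and narrower at 27, against 30.6% and 23.3% of all genes kept for both marks. H3K4me3 was wider and H3K4me2 narrower at 25, against 28.1% of all, and the reverse held at 2, Rps19 and Rpl15, against 5.96%. All 74 pairs of H3K4me3 islands overlapped, as did 96.7% of those of all kept genes, with a median of 92.2% of the Asxl1-/- island also covered in wild type and 96.9% of the wild-type island also covered in Asxl1-/-.

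The other groups had like ratios. The median ratio was 1.08 for H3K4me3 and 0.837 for H3K4me2 at mitochondrial ribosomal protein genes, 1.14 and 0.931 at translation factor genes, and 1.12 and 0.930 at proteasome genes. The 44 kept large subunit genes had 1.07 and 0.916, and the 30 small subunit genes 0.985 and 0.903. At the 17 genes of the Diamond-Blackfan anaemia list the ratios were 1.0 and 0.978.

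At several of the largest H3K4me3 differences, islands separate in one genotype were joined in the other. Rps15, a small subunit protein at chr10:80292431-80294114 beside Apc2, had 17.8 kb in Asxl1-/- against 6.2 kb in wild type, with a single wild-type island inside the larger one. A 7.0 kb H3K27me3 island of Asxl1-/- also lay inside it, 1.29 kb from the gene and so outside the window, while the nearest of wild type was 45.7 kb away. Rpl18, of the large subunit, had 24.2 kb in Asxl1-/- against 11.2 kb in wild type, but the Asxl1-/- island spanned 3 wild-type islands that together covered 20.4 kb of it. Rpl23a, which binds the signal recognition particle at the tunnel exit, had 21.8 kb in Asxl1-/- against 10.8 kb in wild type, and the Asxl1-/- island spanned 2 wild-type islands that covered 16.6 kb. Rpl41, the smallest ribosomal protein, had 7.8 kb in Asxl1-/- against 4.4 kb in wild type.

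In the other direction, the stalk protein gene Rplp2 had 5.8 kb of H3K4me3 in Asxl1-/- against 12.6 kb in wild type. The wild-type island overlapped 2 Asxl1-/- islands, of 13.6 and 5.8 kb, which covered 12 kb of it. The same held at Rpl24, which forms a bridge between the subunits, with 6.4 kb in Asxl1-/- against 11.8 kb in wild type, of which 11.2 kb was also covered in Asxl1-/- by 2 islands. Rpl35a had 5.8 kb in Asxl1-/- against 8.6 kb in wild type, of which 2 Asxl1-/- islands covered 8.2 kb. Rpl4 had 7.2 kb in Asxl1-/- against 10.6 kb in wild type, of which 2 Asxl1-/- islands covered 9.4 kb. Rps3, at the entry of the messenger RNA channel, had 1 island in each genotype, of 5.4 kb in Asxl1-/- against 7.4 kb in wild type. At Rpl18, Rpl23a, Rplp2, Rpl24, Rpl35a and Rpl4 most of the wider island was thus covered in both genotypes.

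Among the lowest H3K4me2 ratios were those of Rpl28, Rps23, Rps20 and Rpl7. Rpl28, which budding yeast lacks, had 4.0 kb in Asxl1-/- against 9.4 kb in wild type, while its H3K4me3 island was 9.6 kb in Asxl1-/- and 9.4 kb in wild type. Its wild-type H3K4me2 island overlapped 2 Asxl1-/- islands, of 2.2 and 4.0 kb, which covered 6.2 kb of it. Rps23, at the decoding centre, had 2.6 kb in Asxl1-/- against 5.4 kb in wild type. Rps20 had 3.0 kb in Asxl1-/- against 6.0 kb in wild type, and Rpl7 had 8.2 kb in Asxl1-/- against 15.8 kb in wild type. At Rps23, Rps20 and Rpl7 each genotype had 1 island and the Asxl1-/- island lay inside that of wild type.

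The highest H3K4me2 ratios were at Rps29, with 4.0 kb in Asxl1-/- against 2.6 kb in wild type, at Rps27l, and at Rpl10a, the protein of the L1 stalk, with 12 kb in Asxl1-/- against 8.8 kb in wild type. They were followed by Rpl15, with 7.6 kb in Asxl1-/- against 5.6 kb in wild type, and Rps9, with 5.2 kb in Asxl1-/- against 4.2 kb in wild type. Rps29 and Rps27l, which had 2 of the narrowest H3K4me3 islands in wild type, had the larger island in Asxl1-/- in both marks.

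Members known for their roles outside the bulk of the ribosome carried both H3K4 marks in both genotypes. Rpl5 and Rpl11, which with 5S ribosomal RNA bind MDM2 and so stabilise p53, lay on opposite sides of a ratio of 1 for H3K4me2. Rpl5 had 5.6 kb of H3K4me3 in Asxl1-/- and 6.6 kb in wild type, and its H3K4me2 island, 4.2 kb in Asxl1-/- and 6.4 kb in wild type, was one of the 9 at most 1/1.5 as wide. Rpl11 had 5.4 kb of H3K4me3 in both and 6.4 kb of H3K4me2 in Asxl1-/- against 5.6 kb in wild type. Rps19, the gene most often mutated in Diamond-Blackfan anaemia, had 7.4 kb of H3K4me3 in Asxl1-/- and 9.2 kb in wild type, and 7.4 kb of H3K4me2 in Asxl1-/- and 7.2 kb in wild type. Rps14, the gene behind the anaemia of the 5q- syndrome, had 5.2 kb of H3K4me3 in Asxl1-/- and 4.8 kb in wild type, and 5.0 kb of H3K4me2 in Asxl1-/- and 6.4 kb in wild type. The stalk base protein gene Rplp0 had 11.4 kb of H3K4me3 in Asxl1-/- and 12.4 kb in wild type, and 9.8 kb of H3K4me2 in Asxl1-/- and 11.8 kb in wild type. Rpsa, which is also known as the laminin receptor, had 5.0 kb of H3K4me3 in Asxl1-/- and 5.2 kb in wild type, and 5.8 kb of H3K4me2 in both.

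The ratios varied by chromosome. Over all kept genes the median H3K4me3 ratio ran from 0.847 on chromosome 3 to 1.38 on chromosome 10. On chromosome 10 the 4 kept ribosomal protein genes had a median of 1.53, with Rps15, Rpl41 and Rps26 wider in Asxl1-/- and Rps12 equal. On chromosome 9 the 7 genes had 1.32, against 1.3 over all its genes. On chromosome 4 none of the 5 genes had a wider H3K4me3 island in Asxl1-/-, and 1, Rpl11, had a wider H3K4me2 island. Their medians were 0.857 for H3K4me3 and 0.676 for H3K4me2, against 1.03 and 0.880 over all its genes. On chromosome 7, with 14 of the genes, the medians were 1.06 and 0.897, against 1.1 and 0.941. The part of the chromosome-wide difference in the ratios of these genes was not tested.

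**Figure D5:**
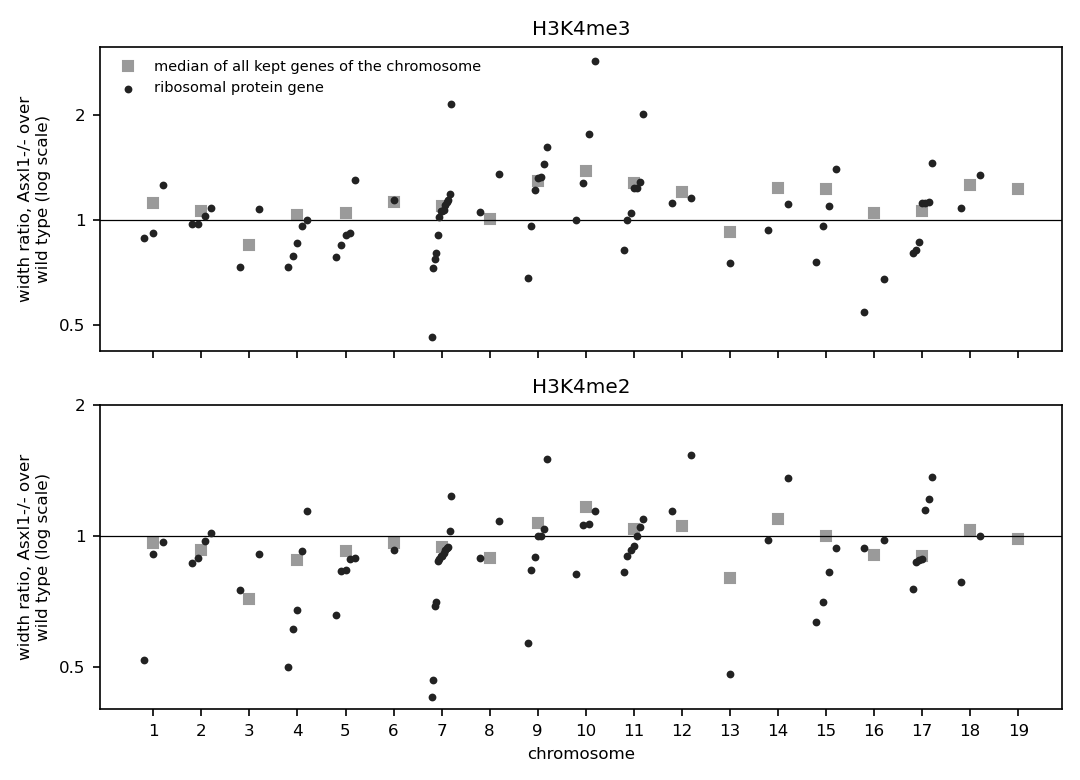
Ratio of island width, Asxl1-/- over wild type, on a log axis, at each kept ribosomal protein gene (black) by chromosome, for H3K4me3 above and H3K4me2 below; points of a chromosome are spread sideways for clarity. Grey squares give the median over all kept genes of the chromosome, from 0.847 to 1.38 for H3K4me3; chromosome 19 has no such ribosomal protein gene.

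ASXL1 islands in wild type lay with H3K4me3. An ASXL1 island overlapped the H3K4me3 island at all 74 genes, against 99.2% of all genes with both. The widest ASXL1 island did so at 73 of the 74, against 93.5% of all. At Rps15a, the longest of the genes at 11.8 kb, the widest ASXL1 island lay at the far end and a narrower one lay on the H3K4me3 island at the start. The ASXL1 island was the wider one at 42 of the 74, against 49.4% of all genes with both, and the median ratio of ASXL1 over H3K4me3 width was 1.11, against 1.0. After Rpl7a, the widest ASXL1 islands were at Rpl36, with 27.4 kb, Rpl12, a protein of the stalk base, with 26.2 kb, Rpl18, with 20.8 kb, and Rpl19, with 20.6 kb. The narrowest were at Rps26, with 1.8 kb, and at Rpl11, with 2.2 kb.

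Log2 widths of ASXL1 and wild-type H3K4me3 islands had a Pearson r of 0.765 across the 74 genes and 0.616 across 10280 genes (Spearman rho 0.726 and 0.634). For the same mark in Asxl1-/- and wild type r was 0.763 for H3K4me3 and 0.835 for H3K4me2 across the 74 genes. Across all kept genes it was 0.748 for H3K4me3 and 0.770 for H3K4me2. These correlations are across genes, which share libraries and neighbours and are not independent replicates.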

How the data were processed

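The series holds 8 samples, and the island lists of 7 were used, leaving out the input. Per the submitters' processing notes, reads were aligned with BWA and islands called with SICER 1.1 on mm10. The aligner's version and the caller's settings and control were not given in the sources used here. Per list, the authors' deposited files give island start and end positions, with no count, score or p-value, and each list is 1 library.

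Gene ends came from a RefSeq table of GRCm38.p6 without strand, and starts and promoters from a RefSeq promoter table. A gene was kept, lost or gained where both genotypes, wild type alone or Asxl1-/- alone had an island within 1000 bp of an end, with 1 bp as the least overlap. Genotypes were not tested against each other, since a single library has no measured spread. Shares carry exact 95% Clopper-Pearson intervals. The genes and lists were chosen with earlier results of these data known. Named genes are those that lost or gained a mark or lacked H3K4me3 or ASXL1, the 5 most extreme in wild-type H3K4me3 width and in the ratio of each H3K4 mark, the 5 widest in ASXL1, and the paralogous copies, stalk proteins, Rpsa, Rpl5, Rpl11, Rps14 and Rps19. Others were named after their values were seen, namely Rps12, Rps15a and the genes listed beside a motif. A gene taken by this rule is not reported here. Motifs were searched on both strands. Python 3.11.15, numpy 2.4.6, pandas 2.3.3, scipy 1.17.1 and matplotlib 3.10.9 were used. The lost and gained calls were checked on the wild-type H3K4me3 list with the islands at randomly drawn genes removed. Widths were checked on the full list. Alternatives varied the window, the overlap, the end, the island set, the members, the chromosomes, the width measure and the motif window.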

Additional observations from a re-analysis of the deposited data

How the results depend on the processing

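Of 175 alternative values for 28 results, 155 kept their direction and stayed within 1.5 times the value given or, for shares, within its 95% binomial interval, 19 moved and 1 reversed. Those intervals are wide for small shares, so that the E-box share of 3.51% from 100 bases before to 50 after the start, against 8.77%, and H3K27me3 shares in Asxl1-/- of 1.3 to 6.49%, against 2.6%, count among the 155. The reversed one is the median H3K4me3 width ratio, 0.930 after division by the chromosome median, which was above 1 on most chromosomes, and the H3K4me2 ratio stayed between 0.905 and 0.959. Leaving out the genes with a close neighbour left 35 kept genes for each H3K4 mark, because fewer genes were counted. With the wider 50% of the islands, H3K4me3 was lost at 4 genes (Rpl27, Rps20, Rps23 and Rps29) and gained at 2. H3K4me2 was lost at 1 (Rps23) and gained at 2, and ASXL1 was at 75.3% of the genes, since narrow islands were removed. Each list was cut at its own median width, for H3K4me3 4.2 kb in Asxl1-/- and 3.4 kb in wild type. Rpl27, with 3.8 kb in both genotypes, and Rps29, with the wider island in Asxl1-/-, thus counted as lost through the unequal cut. H3K4me3 was gained at 2 genes, Rpl39l and Rps27l, with a window of 0 bp or with at least 50% of the window covered, and each H3K4 mark at 0 without the paralogous copies. H3K27me3 was gained at Rpl38 alone with a window of 0 bp or with 50% of the window covered. It was gained at 1 gene, again Rpl38, within 1000 bp of the listed start alone, and at 1, Rpl17, with the wider islands. With a window of 2500 bp H3K27me3 was at 6.49% of the genes in Asxl1-/- and 7.79% in wild type, kept at 3 (Rpl17, Rpl38 and Rps3) lost at 3 (Rpl22, Rpl32l and Rpl5) and gained at 2 (Rps15 and Rps19), so neither gain at Rpl38 nor at Rpl17 held. The TOP share of 47.4%, with the C within 5 bases of the start, was an alternative chosen after seeing the data. Lists of equal length could not be made for ASXL1, which has 1 library. No paired analysis was possible because each target and genotype has 1 library. Without read counts, a missing island may be a weak one.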
